A study of Danio rerio with 6 samples.

Results

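The proteasome was followed across whole zebrafish embryos and sorted reporter cells through 96 probes, of 13999 zebrafish probes analysed on the array. A probe was taken where its gene symbol began with psma, psmb, psmc, psmd, psme, psmf or psmg, or where its description contained the word proteasome. The symbol chose 89 probes, the description 54, and both rules met on 47. The 96 probes stood for 46 genes, of 10664 genes and unnamed probes in all. They comprised 10 alpha and 6 constitutive beta subunits of the core particle, 5 inducible-type beta subunits, 7 ATPases and 12 non-ATPase members of the regulatory particle, 3 activators, 1 inhibitor, and psmc3ip and psme3ip1, which the rule took in by name although they are partners of subunits and not subunits. The non-ATPase class was taken by the psmd prefix and so holds psmd10, a chaperone of regulatory particle assembly. No symbol beginning with psmg (assembly chaperones) had a probe among the 96. An alpha 2-like subunit, a beta 7 subunit and a beta 9b subunit carried no current symbol and are called by the description on the array.

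The proteasome is the main protease of the cytosol and nucleus and destroys proteins that carry chains of ubiquitin. Its core particle is a barrel of alpha rings, which gate the entry, around beta rings, which hold the proteolytic sites. The regulatory particle caps the barrel: its ATPases (psmc) unfold the substrate and open the gate, and its non-ATPase members (psmd) receive ubiquitin, remove it and hold the cap together. In most cells the subunits are made in matched amounts, and in vertebrates inducible beta subunits replace the constitutive catalytic ones in immune tissues.

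RNA had been measured on 6 single-colour arrays, 1 per condition, so that a difference between any 2 of them stands without replicates. Whole embryos of 18 and 24 hours post fertilisation (hpf) gave total RNA. GFP-positive cells were collected by flow sorting at 18, 24 and 28 hpf from Tg(Fli1:EGFP) embryos, in which fli1 regulatory sequence drives EGFP in endothelial cells and also in blood progenitors and part of the neural crest, and at 18 hpf from a Flk reporter line written Tg(Flk:GRCFP) in the design text, named for a vascular growth factor receptor gene. Amplification took 2 rounds for the arrays, and no treatment preceded dissociation. The source label reads whole larvae on all 6 samples, sorted cells included, so the groups were taken from the titles. The labels do not say how many embryos or cells were pooled, or which line the whole embryos came from. The stage of the Flk cells is 18 hpf by title and design and 24 hpf by description. 18 hpf was used.

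The arrays were not equally bright. The share of probes above background was 37.5% and 39.4% in whole embryos, 24.7% to 32.9% in Fli1 cells and 42.6% in Flk cells. A probe counted as above background where its net spot intensity passed the 95th percentile of the 173 Arabidopsis control spots of its array. Before normalization the 99th percentile of net spot intensity was 26836 and 20536 in embryos of 18 and 24 hpf. It was 3039, 10112 and 3357 in Fli1 cells of 18, 24 and 28 hpf and 9289 in Flk cells. The number of arrays limits the precision of every value. As a check of the labelled cells, 3 of 5 endothelial markers (kdrl, lmo2, tal1, tek and fli1) were higher in sorted cells than in whole embryos at an unadjusted p under 0.05 by limma, and 0 passed after adjustment. The vascular receptor gene kdrl had log2 signals of 8.76 to 9.28 in Fli1 cells and 9.16 in Flk cells, against 8.13 and 8.08 in whole embryos at 18 and 24 hpf. The reporter's own gene, fli1, was not above background on any Fli1 array (7.99 to 8.44) and was above it in Flk cells alone, at 8.12. In Fli1 cells of 28 hpf lmo2, at 8.28, lay below both embryos, at 8.84 and 8.36.

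Of the 46 proteasome genes, 43 were above background on at least 1 array and 24 on all 6. Over the whole array these numbers were 6014 and 2007. The 3 genes below background everywhere, by the probe that stands for the gene, were beta 9b, psmc1b and psmc3ip, although a further psmc1b probe was above background on 2 arrays. All values below are log2 signals after background correction and quantile normalization, from the probe with the highest mean signal for each gene. Probes differ in how strongly they bind, so levels are set against each other only within a gene.

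The proteasome genes were most often highest in the younger whole embryo and lowest in the oldest sorted cells. The whole-embryo array at 18 hpf held the highest of the 6 signals for 21 of 43 genes (48.8%), compared with 20.3% of all 6014 genes. The Fli1 array at 28 hpf held the lowest signal for 26 of 43 (60.5%), compared with 24.2% of all genes, and the highest for 6 of 43, compared with 30.6%. All 4 sorted arrays lay below both whole-embryo arrays for 13 of 43 genes (30.2%), compared with 15.2% of all genes, and above both for 3 of 43, compared with 23.4%. Without the Fli1 array at 28 hpf, 14 of 43 genes had every sorted array below both embryos, compared with 17.2% of all genes. Scaling all 6 arrays to their 75th percentile in place of quantile normalization put every sorted array below both embryos for 20 of 43 genes. For all genes the share was then 17.4%. In such bulk RNA, fewer cells of a type and less RNA per cell cannot be told apart.

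**Figure D1:**
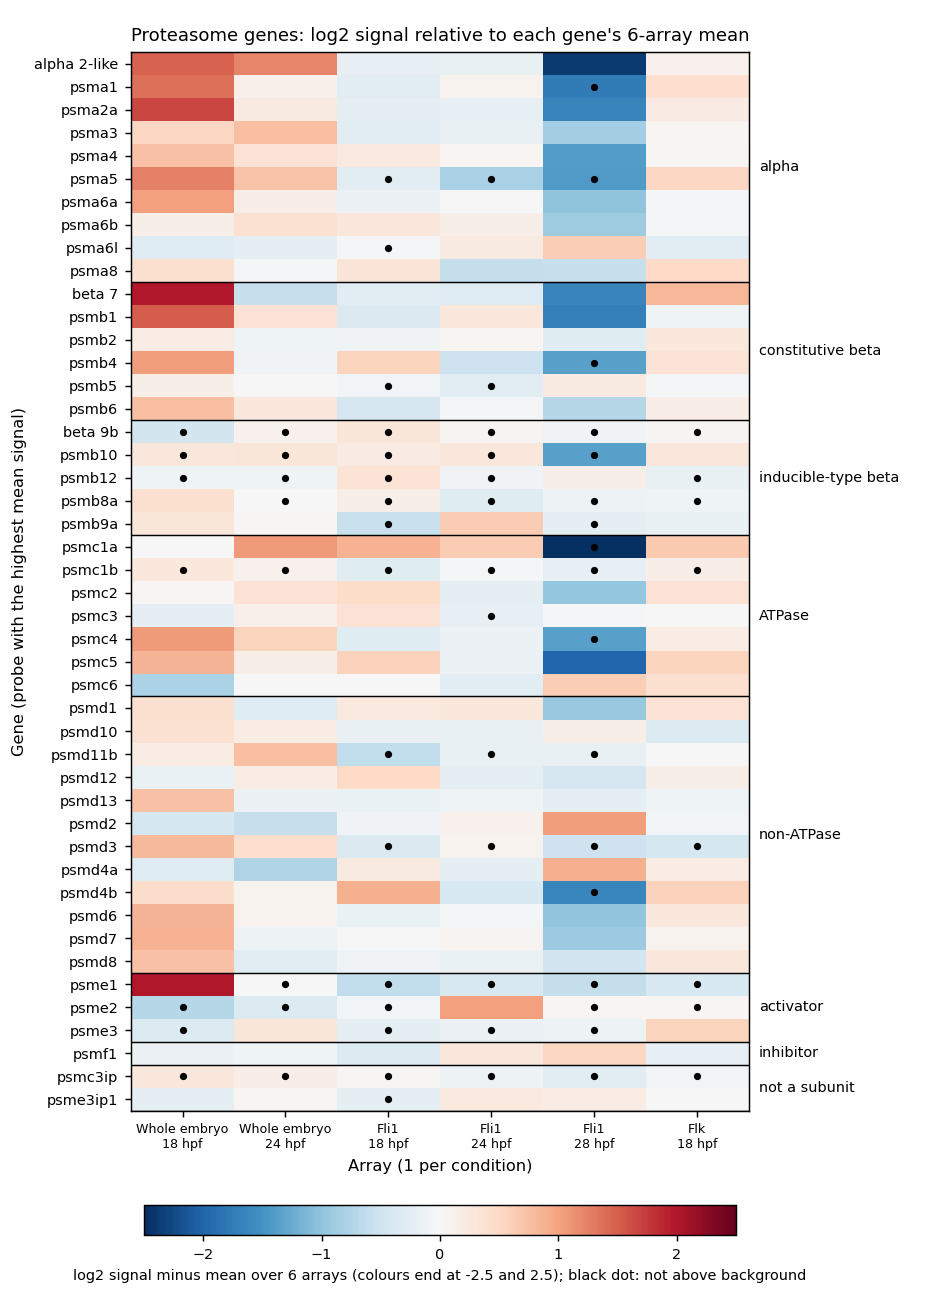
Heat map of the 46 proteasome genes (rows, by class) on the 6 arrays (columns), coloured by log2 signal minus the gene's own mean over the 6 arrays; a black dot marks an array on which the gene was not above background. Red gathers in the whole-embryo column at 18 hpf and blue in the Fli1 column at 28 hpf, where 26 of the 43 genes above background on any array had their lowest signal.

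Among the alpha subunits, which form the gated outer rings, 6 of the 10 genes had all 4 sorted arrays below both embryos. The share of all genes was 15.2%. The alpha 2-like gene had log2 signals of 12.28 and 12.03 in whole embryos at 18 and 24 hpf, of 10.60, 10.63 and 8.41 in Fli1 cells at 18, 24 and 28 hpf, and of 10.92 in Flk cells. Both embryos were high, and Fli1 cells of 28 hpf stood well below the other sorted cells. Against the embryo of the same stage, Fli1 cells were 3.20-fold lower at 18 hpf and 2.63-fold lower at 24 hpf, and their signal at 28 hpf was 4.69-fold below that at 24 hpf. For psma2a the signals, in the same order of arrays, were 12.89 and 11.43 in embryos, 10.97, 11.0 and 9.57 in Fli1 cells and 11.42 in Flk cells. The younger embryo stood apart from all the other arrays, by 2.74-fold from the older embryo and by 3.76-fold from Fli1 cells of the same stage. On the log2 scale Fli1 cells of 18 hpf minus that embryo was -1.91, and -3.48 under the 75th percentile scaling.

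The other alpha genes varied in the size and order of their differences. The psma5 gene had signals of 10.05 and 9.51 in embryos, 8.54, 7.98 and 7.38 in Fli1 cells and 9.31 in Flk cells. All 3 Fli1 values of psma5 were below background, so Fli1 cells were under the embryo of their stage by at least 2.83-fold at 18 hpf and at least 2.38-fold at 24 hpf. For psma1 the signals were 10.54 and 9.30 in embryos, 8.89, 9.25 and 7.42 in Fli1 cells and 9.58 in Flk cells. It was 3.13-fold lower in Fli1 cells than in embryos at 18 hpf, level with the embryo at 24 hpf, and at least 2.0-fold lower at 28 than at 24 hpf. The psma3 signals, 10.22 and 10.44 in embryos against 8.85 to 9.75 on the sorted arrays, did not overlap between the fractions. Likewise psma4 ran from 11.76 to 12.13 in embryos and from 10.01 to 11.64 in sorted cells, and psma6a from 9.86 to 10.72 and from 8.69 to 9.69. The fractions overlapped for psma6b and psma8. Under the 75th percentile scaling psma6b did not overlap, with 10.32 and 10.56 in embryos and 8.86 to 9.93 in sorted cells. One alpha paralog, psma6l, went the other way, with 8.19 and 8.28 in embryos and its highest signal, 9.12, in Fli1 cells of 28 hpf.

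Among the constitutive beta subunits the beta 7 gene, which encodes the trypsin-like catalytic subunit, had the widest spread. Its signals were 13.38 and 10.80 in embryos, 11.10, 11.06 and 9.72 in Fli1 cells and 12.20 in Flk cells. The younger embryo was 5.97-fold above the older one, and the Flk array lay 2.15-fold above the Fli1 array of 18 hpf. After quantile normalization that gap between embryos was larger than the gap between either embryo and the sorted cells of its stage. In the other scalings the gap at 18 hpf was larger. Fli1 cells minus embryo was then -3.83 under the 75th percentile scaling and -4.11 in the authors' scaled values. The older minus the younger embryo was -2.89 and -2.95. For psmb1, a structural beta subunit, the signals were 11.52 and 10.36 in embryos, 9.63, 10.29 and 8.29 in Fli1 cells and 9.90 in Flk cells. Sorted cells were lower throughout, but Fli1 cells of 24 hpf came within a small margin of the embryo of that age, and the step to 28 hpf was 3.99-fold. The caspase-like catalytic subunit psmb6 had 12.30 and 11.83 in embryos and 10.84 to 11.72 in sorted cells, with no overlap. The strongest psmb2 probe ranged from 11.71 to 12.27 after quantile normalization, but from 10.94 to 13.07 under the 75th percentile scaling, where sorted minus whole was -1.14 (-1.25 in the authors' scaled values). The chymotrypsin-like catalytic subunit psmb5 lay between 8.09 and 8.60 with values below background in Fli1 cells of 18 and 24 hpf. Another structural subunit, psmb4, was 2.19-fold lower in the older than in the younger embryo and 2.10-fold lower in Fli1 cells of 24 than of 18 hpf.

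The inducible-type beta subunits were at the edge of detection, as 3 of the 5 (psmb10, psmb12 and psmb8a) were above background on 1 array each and beta 9b on none. The exception was psmb9a, with 8.76 and 8.49 in embryos, 7.90, 9.10 and 8.24 in Fli1 cells and 8.27 in Flk cells. It was above background in both embryos, in Flk cells and in Fli1 cells of 24 hpf, where it was highest, and at least 1.46-fold higher than in Fli1 cells of 18 hpf. In no comparison of fractions was any of the 4 measured genes of this class different by 2-fold.

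In the regulatory particle the ATPases split. For psmc1a the signals were 9.87 and 10.94 in embryos, 10.76, 10.51 and 6.70 in Fli1 cells and 10.53 in Flk cells. By this probe, sorted cells of 18 hpf lay above the embryo of their stage and Fli1 cells of 24 hpf somewhat below theirs. The Fli1 array at 28 hpf was below background, at least 4.78-fold under that at 24 hpf. A further psmc1a probe had both orders reversed. It had 9.49 and 9.23 in embryos, 8.85, 9.42 and 8.13 in Fli1 cells and 8.87 in Flk cells, and was below background at 28 hpf alone. Under the 75th percentile scaling the strongest psmc1a probe had 10.51 in Fli1 cells and 11.5 in the embryo at 24 hpf. At 18 hpf it then had 10.15 in Fli1 cells, 10.54 in Flk cells and 10.2 in the embryo. After quantile normalization the same single low array was seen for psmc5, a 3.52-fold step from 24 to 28 hpf. Its signals were 11.84 and 11.14 in embryos, 11.57, 10.84 and 9.02 in Fli1 cells and 11.56 in Flk cells. A further psmc5 probe, above background on all 6 arrays, was also lowest at 28 hpf, but its sorted minus whole was 0.03. It had 9.45 and 10.17 in embryos, 10.42, 9.82 and 8.82 in Fli1 cells and 10.27 in Flk cells. Under the 75th percentile scaling every sorted array of the strongest psmc5 probe lay below both embryos. It then had 12.62 and 11.71 in embryos, 10.81, 10.92 and 8.95 in Fli1 cells and 11.51 in Flk cells. The strongest psmc4 probe did not overlap between fractions, with 10.46 and 9.94 in embryos, 9.08, 9.24 and 8.04 in Fli1 cells and 9.58 in Flk cells. It was below background in Fli1 cells of 28 hpf, and the difference between Fli1 cells and embryo at 18 hpf was 2.60-fold. Its further probes did overlap. For the next probe, above background on all 6 arrays, sorted minus whole was 0.09, and for the last it was -0.88. After quantile normalization psmc6 had 11.26 and 12.06 in embryos, 12.05, 11.79 and 12.67 in Fli1 cells and 12.44 in Flk cells. Its lowest array was the younger embryo and its highest the Fli1 array at 28 hpf, but under the 75th percentile scaling the lowest was the Fli1 array at 18 hpf (11.23) and the highest the older embryo (12.67). Sorted minus whole was 0.58 and turned to -0.50 under that scaling and -0.64 in the authors' scaled values. Flk cells were 2.27-fold above the embryo of 18 hpf, a difference of 1.18 on the log2 scale that was 0.38 under the 75th percentile scaling. Signals of psmc2 ranged from 10.33 to 11.76 and of psmc3 from 8.12 to 8.71, with overlap between fractions. Under the 75th percentile scaling psmc2 did not overlap, with 12.04 and 12.26 in embryos and 9.88 to 11.6 in sorted cells. Sorted minus whole of psmc2 was -0.29 after quantile normalization and -1.24 under that scaling.

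Among the 12 non-ATPase members, 3 had all sorted arrays below both embryos. The lid subunit psmd3 had 8.53 and 8.14 in embryos and was below background on all 4 sorted arrays, at 7.37, 7.82 and 7.21 in Fli1 cells and 7.28 in Flk cells. The lid subunit psmd11b was likewise highest in embryos, at 8.34 and 8.91, and was above background among sorted cells in Flk cells alone, at 8.16. The third, psmd10, a chaperone of regulatory particle assembly known as gankyrin in mammals, had 9.69 and 9.50 in embryos and 8.97 to 9.47 in sorted cells. At 18 hpf the lid subunit psmd6 was 2.02-fold lower in Fli1 cells than in the embryo, and psmd7 and psmd8 were 2.0-fold and 2.02-fold lower in the older than in the younger embryo. The base scaffold psmd1 was 2.30-fold lower in Fli1 cells of 28 than of 24 hpf.

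The other base scaffold, psmd2, and the ubiquitin receptor psmd4a were higher in sorted cells. The psmd2 signals were 9.69 and 9.57 in embryos, 10.05, 10.25 and 11.19 in Fli1 cells and 10.07 in Flk cells. The psmd4a signals were 9.91 and 9.47 in embryos, 10.46 and 11.12 in Fli1 cells of 18 and 28 hpf and 10.42 in Flk cells, with Fli1 cells of 24 hpf just above the younger embryo. For both, every sorted array lay above both embryos and the Fli1 array at 28 hpf was the highest, 2.17-fold above 24 hpf for psmd4a. The log2 step of psmd4a from 24 to 28 hpf was 1.12, and 0.51 when arrays were scaled to their 75th percentile, under which Fli1 cells of 18 hpf lay below the younger embryo for both genes (9.65 against 9.98 for psmd2 and 9.93 against 10.27 for psmd4a). A further psmd4a probe ran the other way, as given with the probes. The paralog psmd4b had 10.22 and 9.86 in embryos, 10.67, 9.39 and 8.14 in Fli1 cells and 10.35 in Flk cells. It was 2.44-fold lower at 24 than at 18 hpf in Fli1 cells, and at least 2.2-fold lower again at 28 hpf, where psmd4a was at its highest.

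The activators and the inhibitor lie outside both particles. The activator psme1, a subunit of the PA28 cap that opens the core without ATP, was above background in the whole embryo of 18 hpf alone, at 9.34, with 7.32 in the older embryo, 6.73, 6.94 and 6.74 in Fli1 cells and 6.95 in Flk cells. It was at least 2.43-fold lower in the older embryo, at least 1.73-fold lower in Fli1 cells of 18 hpf and at least 2.57-fold lower in Flk cells. Its partner psme2 was above background in Fli1 cells of 24 hpf alone, at 8.62, against 6.87 and 7.24 in embryos, 7.52 and 7.63 in the other Fli1 cells and 7.63 in Flk cells. The 2 subunits of that cap therefore had their single detected array in different fractions. The nuclear activator psme3 ranged from 7.43 to 8.33, the inhibitor psmf1 from 8.77 to 9.63 and psme3ip1 from 8.36 to 8.83.

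Core and regulatory genes were then compared after each gene was centred on its own mean over the 6 arrays, for the 20 core and 18 regulatory genes above background on any array. In whole embryos of 18 hpf the core median was 0.63 and the regulatory median 0.39, and 18 of 20 core and 12 of 18 regulatory genes were above their own means. The median of all genes was -0.07 there. At 24 hpf the embryo medians were 0.15 and 0.11. In Fli1 cells the core and regulatory medians were -0.12 and 0.01 at 18 hpf, -0.07 and -0.16 at 24 hpf and -0.95 and -0.50 at 28 hpf, and in Flk cells 0.08 and 0.19. Core genes thus had the wider swing between the extreme arrays, with a core minus regulatory gap of 0.24 in the younger embryo and -0.45 in Fli1 cells of 28 hpf. On the other 4 arrays the gap lay between -0.12 and 0.09. These gaps are descriptions of single arrays and were not tested, and at 28 hpf the genes of each class ranged widely, from -2.40 to 0.61 in the core and from -3.18 to 1.06 in the regulatory particle. With that array left out and genes centred on the remaining 5, the gap was 0.23 in the younger embryo and -0.33 in Fli1 cells of 18 hpf.

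**Figure D2:**
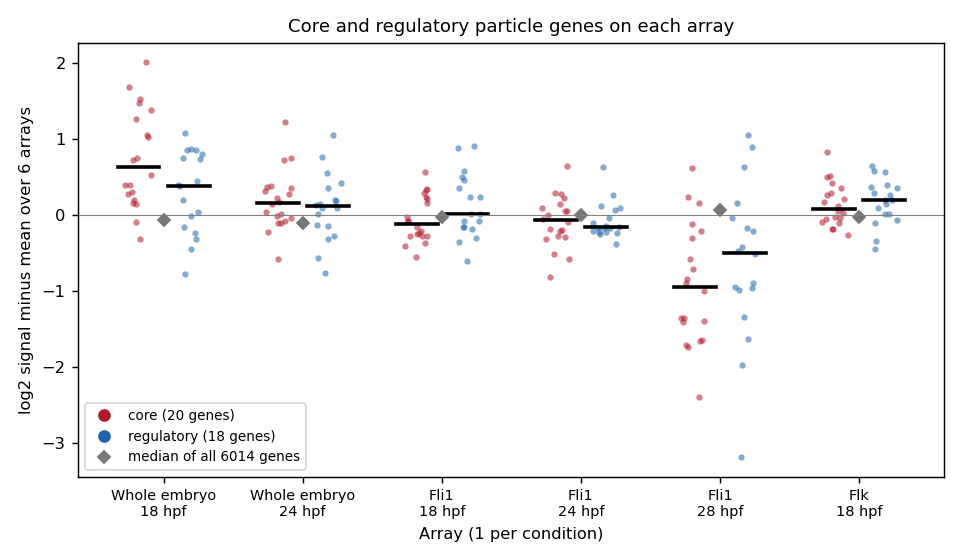
Log2 signal minus the gene's mean over 6 arrays (vertical axis) for 20 core genes (red) and 18 regulatory genes (blue) on each array; black bars are class medians and grey diamonds the median of all 6014 genes. The core median runs from 0.63 in the whole embryo at 18 hpf to -0.95 in Fli1 cells at 28 hpf, the regulatory median from 0.39 to -0.50, and the median of all genes stays near 0.

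The pairwise comparisons ask how sorted cells differ from whole embryos at a stage, how the reporter lines differ, and what changes with age. A gene was counted where the arrays differed by 2-fold or more and the brighter of them was above background. At 18 hpf, 12 of 43 proteasome genes were lower in Fli1 cells than in embryos and 0 were higher, where 13.0% of all genes were lower and 9.89% higher. Of the 12, 8 were core genes, 3 regulatory genes and the last was psme1. The median log2 difference was -0.28 over the 43 genes and 0.02 over all genes, with -0.65 for the core and -0.21 for the regulatory particle. The lower genes included beta 7, psma2a, psmb1 and the alpha 2-like gene, and psme1 and psma5, for which only the bounds given above are known. Also counted was psmd3, whose Fli1 signal was below background, so neither its 2-fold size nor its direction is shown. Under the 75th percentile scaling 21 genes were lower and the median was -0.99, with 17.4% of all genes lower. In the authors' scaled values 24 were lower and the median was -1.33, where the median of all genes was -0.21 and 23.6% of all genes were lower. The count of higher genes was 0 under each, where 5.67% and 3.82% of all genes were higher.

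At 24 hpf the difference between Fli1 cells and embryos was smaller in count. Only the alpha 2-like gene and psma5 were lower at 2-fold and psme2 was called higher, where 7.75% of all genes were lower and 4.39% higher. The embryo signal of psme2 was below background, so its 2-fold size is not shown. The median was -0.28 over the 43 genes and 0.13 over all genes. Below 0 were 29 of 43 genes, compared with 41.9% of all genes. Under the 75th percentile scaling 5 genes were lower and 1 higher (10.1% and 4.16% of all genes), and in the authors' scaled values 7 and 1 (13.1% and 3.97%).

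Flk cells were lower than whole embryos at 18 hpf for 7 of 43 genes and higher for psmc6 alone, where 6.70% of all genes were lower and 6.88% higher. The 7 were psme1, psmb1, psma2a, the alpha 2-like gene, psmd3, beta 7 and psma6a, and all but psmd3 and psme1 are core genes. The Flk signal of psmd3 was below background, so its 2-fold size is not shown. The median was -0.29 over the 43 genes and 0.05 over all genes. Under the 75th percentile scaling 18 genes were lower, compared with 11.7% of all genes, and in the authors' scaled values 19, compared with 14.2%. The 1 gene called higher was psme3 in both, where 7.10% and 7.53% of all genes were higher. The embryo signal of psme3 was below background, so its 2-fold size is not shown. Set against the older embryo, as the description of the Flk sample would have it, 1 gene was lower and 1 higher, where 6.30% of all genes were called in each direction. This comparison and that of Fli1 cells at 18 hpf use the same embryo array, so their overlap in genes is not a separate observation.

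After quantile normalization the reporter lines differed little in these genes. Between Flk and Fli1 cells of 18 hpf, beta 7 alone was 2-fold higher and 0 genes were lower, where 5.50% of all genes were higher and 3.64% lower, and the median was 0.12 over the 43 genes and 0.03 over all genes. Under the 75th percentile scaling 5 genes were higher and 0 lower, where 392 of all 6014 genes were higher and 95 lower. The median was then 0.44 over the 43 genes and 0.04 over all genes. In the authors' scaled values 7 genes were higher and 0 lower, compared with 9.84% and 1.35% of all genes. There the median was 0.62 over the 43 genes and 0.18 over all genes. From 18 to 24 hpf in Fli1 cells, psmb9a and psme2 were called higher and psmd4b and psmb4 lower. Of all genes 4.97% were higher and 3.76% lower, and the median was 0.03 over the 43 genes. Both psmb9a and psme2 were below background at 18 hpf, so neither is shown to reach 2-fold (at least 1.46-fold for psmb9a). That split of 2 and 2 became 3 higher and 0 lower under the 75th percentile scaling (7.48% and 1.71% of all genes), and 5 and 0 in the authors' scaled values (9.58% and 1.76%).

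From 24 to 28 hpf in Fli1 cells, 13 of 43 genes were lower at 2-fold and psmd4a was higher, where 9.94% of all genes were lower and 8% higher. The median was -0.65 over the 43 genes and 0.08 over all genes, with -0.85 for the core (8 of 20 genes lower) and -0.46 for the regulatory particle (5 of 18 lower). The lower genes included the alpha 2-like gene, psmb1 and psmc5, and psmc1a and psma1, for which only the bounds given above are known. Also counted was psmc4, which was below background at 28 hpf, so its 2-fold size is not shown. Among genes above background on all 6 arrays the median was -0.71 for the 24 proteasome genes and 0.25 for all 2007. Among genes with a mean log2 signal of at least 10, it was -0.67 for 13 proteasome genes and -0.19 for all 644. Under the 75th percentile scaling 15 genes were lower and 0 higher (11.8% and 3.18% of all genes), and in the authors' scaled values 17 and 0 (12.2% and 3.84%).

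Other measures moved with this step. The 5 measured erythroid markers were above background on both arrays, and their summed signal was 16.07 on the log2 scale at 24 hpf and 16.56 at 28 hpf, the highest of the 6 arrays, against 10.72 and 13.75 in embryos. That sum is mostly the globins hbae1.1 and hbae3, and at 2-fold alas2 was higher at 28 hpf (11.72 to 13.11) and urod lower (12.46 to 10.96). The summed signal of 5 endothelial markers, of which 4 were above background, was 11.67 at 24 hpf and 12.34 at 28 hpf, while their median signal was 9.32 and 9.28. At 2-fold tal1 was higher (10.18 to 11.59) and lmo2 lower (9.32 to 8.28). Of 6 epidermal markers, krt4 (10.05 to 12.12) and krt5 (12.02 to 13.43) were higher and icn lower (11.43 to 9.2). The epidermal marker krt92 was called lower too, but was below background at 28 hpf. Of 4 neural markers elavl3 alone was called, higher (10.21 to 11.4), and no myeloid or skeletal muscle marker was called. The 99th percentile of net spot intensity was 10112 at 24 hpf and 3357 at 28 hpf before normalization. Their part in the result was not tested.

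With age in the whole embryo, 8 of 43 genes were lower at 24 than at 18 hpf and psmc1a was higher, where 3.99% of all genes were lower and 5.54% higher. The 8 were beta 7, psme1, psma2a, psma1, psmb1, psmb4, psmd8 and psmd7. The median was -0.35 over the 43 genes and -0.07 over all genes. Over the same interval the median of the 43 genes in Fli1 cells was 0.03, and the difference between embryos and Fli1 cells was not tested.

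**Figure D3:**
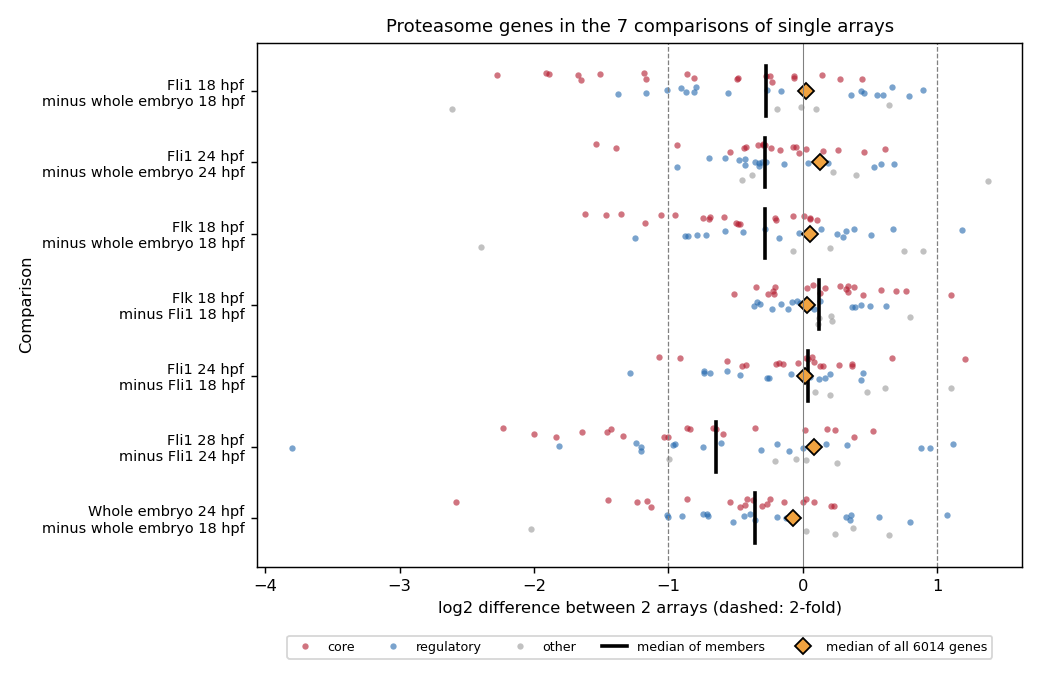
Log2 difference between the 2 arrays of each of the 7 comparisons (horizontal axis) for every proteasome gene above background on any array, by class, with the median of the 43 members (black bar) and of all 6014 genes (orange diamond); dashed lines mark 2-fold. The members' median lies left of that of all genes in the comparisons with whole embryos, between embryos and from 24 to 28 hpf in Fli1 cells, where it is -0.65 against 0.08.

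The contrast with more than 1 array on each side set the 4 sorted arrays against the 2 whole-embryo arrays by limma, with adjustment over all 6014 genes. Its spread is that between arrays inside each fraction and so mixes stage, reporter line and array error. By limma, 0 of 43 proteasome genes passed an adjusted p of 0.05, where 0.0499% of all genes passed upwards and 0.732% downwards. At an unadjusted p under 0.05, 11 were lower and psmd4a was higher, where 10.4% of all genes were lower and 9.28% higher. The median log2 difference, sorted minus whole, was -0.42 over the 43 genes and 0.09 over all genes. It was -0.74 for the core, with 18 of 20 genes below 0, and -0.41 for the regulatory particle, with 14 of 18. Of all genes 44.5% were below 0. Of 6 measured epidermal markers 3 passed in the same limma fit, all lower in sorted cells, and their summed log2 signal was 16.26 and 16.74 in embryos and 13.14 to 14.04 in sorted cells. The largest part of that sum was krt5 on every array, followed by icn at 24 hpf and by krt92 or krt4 on the other arrays. The epidermal marker cdh1 differed by 0.71 the other way (limma, adjusted p = 0.225), being above background in Fli1 cells of 28 hpf alone. Their part in the result was not tested.

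The lowest adjusted p in the limma fit, 0.184, belonged to psmd3. Its signals on 4 of 4 sorted arrays lay under both embryo signals, but all 4 were below background. The order against both embryos is therefore not shown on the Fli1 arrays. The alpha 2-like gene differed by -2.01 ± 0.66 (SE, limma, adjusted p = 0.192) and psma3 by -0.95 ± 0.31 (adjusted p = 0.192). By limma psme1 had an adjusted p of 0.194 and psma5 of 0.200. No size is given for psmd3, psme1 and psma5, since psmd3 was below background on all 4 sorted arrays, psma5 on all 3 Fli1 arrays and psme1 on 5 of the 6 arrays. These differences did not pass, although for each all sorted signals lay below both embryo signals. For psmd3, psme1 and psma5 that order includes values below background. When the Fli1 and embryo arrays of 18 and 24 hpf alone were fitted with stage as a block, 3 proteasome genes passed. They were the alpha 2-like gene, psma5 and psme1, all lower in sorted cells. That fit leaves 1 residual degree of freedom. On its arrays psma5 was below background in both Fli1 samples, and psme1 in all but the embryo of 18 hpf. In that limma fit 3.74% of all genes were called lower and 2.05% higher. Without the whole-embryo array of 24 hpf psme1 alone passed by limma, lower in sorted cells. The embryo side was then the 1 array on which psme1 was above background, assumed to vary like the others, and in that fit 0.333% of all genes were lower and 0.0166% higher. Of the 43 genes, the median without the whole-embryo array of 18 hpf was -0.23, and without the Fli1 array of 28 hpf -0.21.

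Many of the genes had several probes, 28 of the 46 in all, and these did not always follow each other. Among the 20 genes with at least 2 probes above background on any array, all such probes had the same sign for the difference between sorted and whole in 13 genes (65%), and from 24 to 28 hpf in Fli1 cells in 8 genes (40%). The 4 probes of the lid subunit psmd13 agreed, with differences between sorted and whole of -0.45 to -0.78. For the lid subunit psmd12 the strongest probe was level, at -0.02, while 3 others differed by -1.21, -1.51 and -1.04 and the last was level too. The strongest psmd4a probe was higher in sorted cells by 0.81 and the next was lower by -1.09, with 9.06 and 8.92 in embryos and values below background in all Fli1 cells. The psmd2 probes differed by 0.76, 0.41 and -0.36. With signals averaged over probes, sorted minus whole was 0.28 for psmd2 and -0.14 for psmd4a, so the higher psmd4a signal rested on the probe chosen. For the strongest probes the difference was smaller without quantile normalization but kept its sign. It was 0.24 for both genes under the 75th percentile scaling. In the authors' scaled values it was 0.13 for psmd2 and 0.17 for psmd4a.

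Probes of psmc6 and psmb1 also parted. The 6 psmc6 probes differed between sorted and whole by -0.66 to 1.60, and from the younger to the older embryo 2 of them were higher by 1.59 and 1.42 while the last was lower by -1.31, both of its embryo values being below background. For psmb1, whose strongest probe was lower by -2.0 from 24 to 28 hpf in Fli1 cells, the next probe was at 8.31 and 8.77. With signals averaged over the probes of each gene, 9 proteasome genes were lower and 0 higher from 24 to 28 hpf, and the median was -0.35, where 478 of all 6038 genes were lower and 379 higher and the median was 0.06. The lower signal of the class at 28 hpf was thus smaller in the average over probes. That average also takes in probes below background on all 6 arrays, and their part in the smaller value was not tested.

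**Figure D4:**
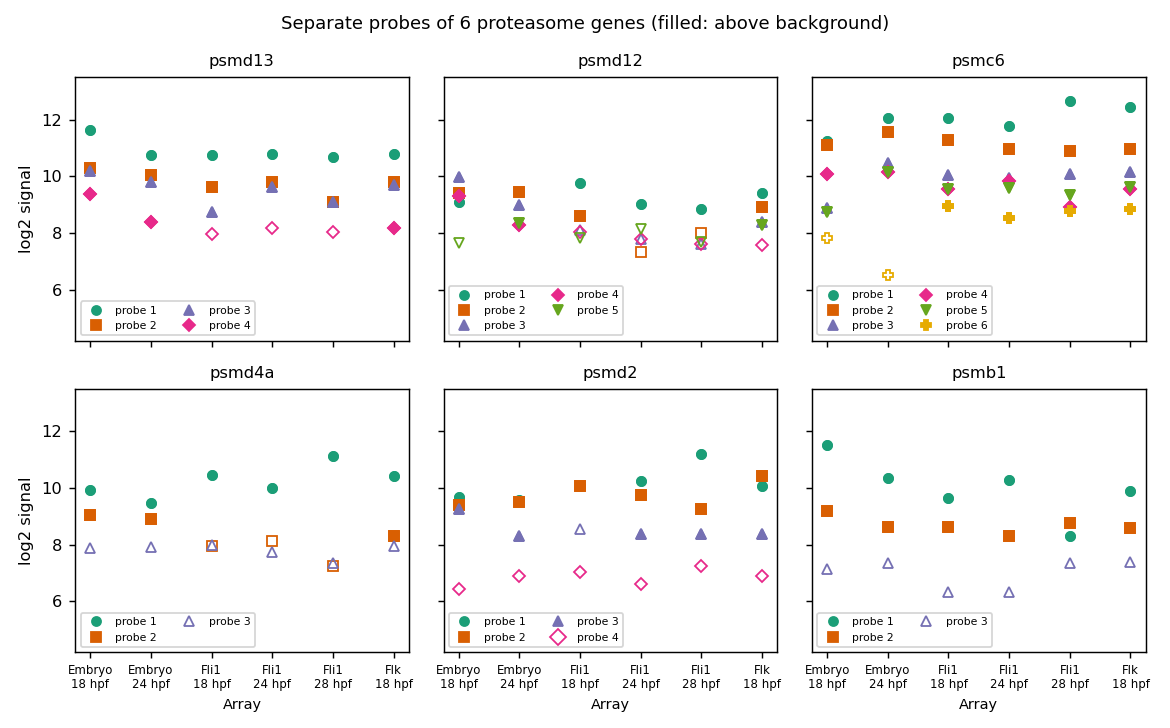
Log2 signal (vertical axis) of every probe of 6 proteasome genes on the 6 arrays; filled symbols are above background and open ones are not, and probes are numbered by mean signal. The psmd13 probes are all highest in the whole embryo at 18 hpf, while the strongest psmd4a probe is highest in Fli1 cells at 28 hpf (11.12) and its next probe lowest there (7.24).

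Genes around the proteasome were read from 7 lists of the ubiquitin system and related complexes, which held 79 measured genes. By limma 1 of the 79 passed, downwards, compared with 0.732% of all genes, and at an unadjusted p under 0.05, 5 were higher and 10 lower, compared with 9.28% and 10.4% of all genes. Their median difference between sorted and whole was -0.05, between that of the proteasome genes and that of all genes. The gene that passed was zfand5b, of a family that binds ubiquitin and activates the proteasome in mammals. It had 10.40 and 10.61 in embryos, 8.93, 9.12 and 8.74 in Fli1 cells and 8.81 in Flk cells, a difference of -1.60 ± 0.25 (limma, adjusted p = 0.0319), lower in 4 of 4 sorted arrays. From 24 to 28 hpf in Fli1 cells 6 of the 79 genes were higher (7.59%) and 7 lower (8.86%), near the 8% and 9.94% of all genes, with a median of -0.06.

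Of the genes in direct contact with the particle, pomp, the chaperone of core assembly, was level between 10.83 and 11.22. The small lid subunit sem1 had 10.61 and 10.52 in embryos, 9.89, 10.56 and 8.78 in Fli1 cells and 9.43 in Flk cells, 3.42-fold lower at 28 than at 24 hpf in Fli1 cells. The proteasome-bound deubiquitinase usp14 had 10.27 and 9.32 in embryos, 9.18, 9.28 and 7.86 in Fli1 cells and 10.24 in Flk cells, at least 2.04-fold lower at 28 than at 24 hpf. Both were lowest on the array on which most proteasome genes were lowest. The ubiquitin receptor adrm1 ranged from 8.99 to 9.51.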

How the data were processed

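Per the labels' protocols, sorted cells gave RNA that was amplified with the AmpTec ExpressArt Nano kit and labelled with Cy3. Per the file headers, the authors deposited the intensity of each spot and of its background at scan settings 45, 55 and 65, a scaled intensity joined over settings and a flag score per spot. The scanner and software are not given in the sources used here. The series value table held the authors' scaled intensity, within 4.3e-07.

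Of 14784 spots, 14067 were zebrafish probes, of which 68 with a flag were left out. Names came from RefSeq (assembly GRCz12tu), for 7702 probes by accession and 24 by an older accession. Intensities at setting 55 were corrected by normexp (offset 50) and quantile normalized with limma 3.58.1 in R 4.3.3. Each gene was represented by the probe of highest mean signal and was analysed where above background on at least 1 array. Where the dim array was below background, a fold is a lower bound (at least), set against its own signal or, if higher, the lowest above-background signal of that array. The 4 sorted and 2 whole-embryo arrays were compared with lmFit and eBayes (4 residual degrees of freedom, Benjamini-Hochberg adjustment at 0.05, tested on simulated data). Pairs of arrays have no test.

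Alternatives were scaling, background, scan setting, probe, filter, stage block and leaving out arrays. The genes named were those past the limma threshold, up to 5 at each end of the 2-fold calls of a comparison, those below background everywhere, those whose probes disagreed and up to 3 of each related list at 18 or 24 hpf, and the remaining members by class. The members and lists were chosen with earlier results of these data known. No sequence is shown, since no table of sequences was used here.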

Additional observations from a re-analysis of the deposited data

How the results depend on the processing

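Of 43 proteasome genes, 0 passed by limma in quantile-normalized values and in each other scaling, background, probe and filter setting run, while 3 passed in the stage-matched fit with stage as a block, and leaving out 1 array at a time gave 0 to 1. The median difference of Fli1 cells from whole embryos at 18 hpf was -0.99 under the 75th percentile scaling and -1.33 in the authors' scaled values, in which that of Flk from Fli1 cells was 0.62 and that of Fli1 cells from 18 to 24 hpf was 0.42. With genes of a mean log2 signal of at least 10, chosen after the data were seen, the core minus regulatory gap was 1.08 in the younger embryo and -1.30 in Fli1 cells of 28 hpf, and of 13 such genes 4 had all sorted arrays below both embryos and 10 were lowest in Fli1 cells of 28 hpf, compared with 15.4% and 37.1% of all such genes. The first of these counts was 20 of 43 under the 75th percentile scaling and 8 of the 24 genes above background on all 6 arrays (10.2% of all such genes), where fewer genes were counted. The cause of the other changes was not tested. All 51 differences of 2-fold kept their sign under both other scalings, though not their size. No paired analysis was possible because every condition had 1 array and no replicate numbers to pair, other than the stage block above, and the search for promoter motifs was not run. Signals near background, those of the inducible-type beta subunits and activators, give no order.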

Other observations

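Upstream of the proteasome, the ubiquitin-activating enzyme uba1 ran opposite to the core subunits. Its log2 signals were 8.52 and 8.61 in whole embryos at 18 and 24 hpf, 10.23, 10.57 and 11.76 in Fli1 cells at 18, 24 and 28 hpf and 10.39 in Flk cells, so it was 3.28-fold and 3.87-fold higher in Fli1 cells than in embryos of the same age. By limma the difference between sorted and whole was 2.17 ± 0.43 (SE, adjusted p = 0.0798), higher in 4 of 4 sorted arrays, and did not pass. The activating subunit for the ubiquitin-like protein NEDD8, nae1, was lower, with 9.16 and 9.08 in embryos and values below background in all Fli1 cells. The conjugating enzyme ube2r2 was 2.89-fold and 2.64-fold higher in Fli1 cells at 18 and 24 hpf, and the cullin scaffold cul3a was 3.73-fold higher at 18 hpf. The deubiquitinase usp2a was 3.37-fold higher at 18 hpf, and anapc16, a subunit of the anaphase-promoting complex, was 3.34-fold lower.

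Related complexes were mixed. The COP9 signalosome subunit cops9 had 13.57 and 13.03 in embryos, 11.97, 12.39 and 10.81 in Fli1 cells and 12.54 in Flk cells. It was lowest in Fli1 cells of 28 hpf, as were cops2 and cops5 and most core subunits. The subunits cops3, cops4 and cops6 of the same complex were highest there. The ATPase vcp, which extracts ubiquitinated proteins for degradation, exceeded the embryo of 18 hpf in Fli1 cells of that stage by at least 4.04-fold. At 24 hpf it was lower in Fli1 cells (9.16) than in the embryo (9.88), and in Fli1 cells of 28 hpf it was below background. Of the chaperonin subunits, cct4 was higher (at least 2.95-fold) and cct7 lower (at least 3.20-fold) in Fli1 cells than in the embryo at 18 hpf. These values come from single arrays without replicates.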
